A study of Mus musculus with 9 samples.

Results

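The JAK and STAT genes described here are Jak1, Jak3, Tyk2, Stat2, Stat3, Stat4, Stat5a, Stat5b and Stat6. They were chosen by family name, not by their values, and are 9 of the 55471 gene identifiers in the count files. All 9 passed the filter on low counts, which kept 14918 genes. RNA came from OT-I cells, CD8+ T cells whose transgenic receptor recognises an ovalbumin peptide. Controls (4 libraries) were Bdh1-WT and carried shCtrl, a short hairpin RNA (shRNA) that targets firefly luciferase. The DKO group (5 libraries) was Bdh1-KO and carried shOxct1, an shRNA against Oxct1. Bdh1 and Oxct1 encode enzymes that break down ketone bodies, and the comparison asks what their intended joint loss changes in effector T cells. In both groups naive cells had been activated for 24 h with antibodies to CD3ε and CD28 and with interleukin 2 (IL-2, 50 U/mL), transduced and kept in IL-2. Cells positive for the Ametrine reporter were moved into C57BL/6 mice of a different CD45 type, which then received LmOVA, a Listeria monocytogenes strain that makes ovalbumin. Donor cells were recovered by sorting on day 7 of infection. The groups differ in 2 alterations at once, an shRNA lowers a transcript without removing it, and the labels do not say whether replicates came from separate mice, so p-values measure only the spread between these libraries.

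Cytokine receptors have no enzyme activity of their own and use Janus kinases (JAKs) bound to their tails. After a cytokine binds, the JAKs phosphorylate the receptor and then STAT proteins, which pair, enter the nucleus and switch on genes. JAK1 and JAK3 serve receptors that contain the common gamma chain, such as those for IL-2, IL-7, IL-15 and IL-21, and these signal largely through STAT5A, STAT5B and STAT3. TYK2 serves the IL-12 receptor, which acts through STAT4, and together with JAK1 the type I interferon receptor, where STAT2 joins IRF9. STAT6 is the main STAT of IL-4. RNA counts do not measure phosphorylation, which is how these proteins are switched on.

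STAT dimers bind the gamma-activated sequence, TTCNNNGAA, and STAT2 with IRF9 binds the interferon-stimulated response element, searched here as GAAA, any 2 bases, GAAA on both strands. RefSeq promoters in GRCm38.p6 (250 bases before to 50 after a start site) were found for all 9 genes, 12 promoters in all. None of the 12 held TTCNNNGAA, which 8.30% of all 32851 promoters held, and 2 of the 12 held the interferon element, against 3.44% of all. Those 2 stretches are shown first, with the element in capitals (Stat2, chr10:128270248-128270347, plus strand, and a start site within Stat4, chr1:52008110-52008209, plus strand).
Stat2: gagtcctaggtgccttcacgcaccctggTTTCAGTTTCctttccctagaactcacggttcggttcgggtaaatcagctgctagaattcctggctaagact
Stat4: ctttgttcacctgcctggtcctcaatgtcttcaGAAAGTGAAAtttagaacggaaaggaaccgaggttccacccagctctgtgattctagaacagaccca
The bases before the start of Jak1 are shown because the largest difference among the 9 genes was at Jak1 (chr4:101265224-101265473, minus strand). They hold neither element, so nothing is in capitals.
Jak1: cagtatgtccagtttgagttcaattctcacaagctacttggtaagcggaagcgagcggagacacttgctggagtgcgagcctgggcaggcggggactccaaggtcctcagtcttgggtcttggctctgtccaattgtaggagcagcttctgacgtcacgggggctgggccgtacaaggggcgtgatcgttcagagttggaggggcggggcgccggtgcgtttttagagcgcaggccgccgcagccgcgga
Targets whose values are given further on are shown for their elements in capitals: the interferon element in Oas1a (chr5:120907526-120907585, minus strand) and Rsad2 (chr12:26456543-26456602, minus strand), and TTCNNNGAA in Cish (chr9:107296654-107296683, plus strand), Il12rb2 (chr6:67376279-67376338, minus strand) and Socs3 (chr11:117969487-117969546, minus strand). In Oas1a, 2 overlapping matches form 1 run of capitals.
Oas1a: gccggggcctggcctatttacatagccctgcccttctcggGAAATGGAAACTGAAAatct
Rsad2: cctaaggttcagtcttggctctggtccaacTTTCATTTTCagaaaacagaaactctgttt
Cish: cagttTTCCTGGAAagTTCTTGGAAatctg
Il12rb2: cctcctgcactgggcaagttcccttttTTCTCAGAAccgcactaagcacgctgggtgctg
Socs3: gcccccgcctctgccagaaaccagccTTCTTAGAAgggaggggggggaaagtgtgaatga
A match describes letters in a window, not binding.

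The libraries held 45205993 to 59853080 counts in genes. Oxct1 had a control level of 63.1 ± 5.73 counts per 1000000 (CPM; SD, n = 4) and a DKO level of 5.16 ± 0.369 CPM (SD, n = 5), and Bdh1 had 30.5 ± 4.16 and 10.6 ± 1.24 CPM over all its exons. On the first principal component the score of control replicate 1 was 79.1 and those of the other 8 libraries -23.5 to 7.25. The second set control replicate 3 apart, with a score of -70.2 against -5.59 to 20.2. All 8 CD8 T cell markers were above 1 CPM. They summed to 8116 CPM in control and 7068 CPM in DKO (exact permutation p 0.0794, adjusted p 0.119 over 6 marker lists, two-sided). Cd8b1 (2245 and 1701 CPM) was called by DESeq2 and limma-voom, while Cd5 (251.7 and 296.8) and Gzmb (1133 and 1169) had higher means in DKO. The summed myeloid markers were at 164.5 to 200.8 CPM in control and 116.1 to 125.9 CPM in DKO, and the summed CD4 T cell markers at 28.1 to 36.7 and 39.4 to 51.8 CPM (exact permutation p 0.0159 and Benjamini-Hochberg adjusted p 0.0476 over 6 marker lists for each, two-sided). Of 12 myeloid markers 8 were above 1 CPM, and the lower sum in DKO was carried by Ctss (81.1 and 51.2 CPM), Itgam (58.9 and 38.1) and Cd68 (29.1 and 16.8). Lyz2 (2.43 and 5.84 CPM) and Csf1r (1.84 and 2.37) had higher means in DKO, while S100a8 (0 counts in control), S100a9, Fcgr1 and Cd14 stayed below 1 CPM. The CD4 sum was carried by Cd40lg (20.4 and 29.4 CPM) and Ctla4 (12.7 and 16.7), with Foxp3 at 0.137 and 0.212 CPM. Cd4 itself was at 0.172 and 0.344 CPM. Natural killer markers summed to 145.8 and 113.7 CPM, B cell markers to 220.3 and 203.2 CPM, and erythroid and platelet markers to 20.1 and 22.1 CPM in control and DKO, with adjusted exact permutation p of 0.0952, 0.514 and 0.810. Xist was higher in DKO (14.9 ± 4.92 CPM against 0.131 ± 0.154 CPM), and 0 of the 9 JAK and STAT genes lie on the X chromosome. A difference in donor sex between the groups was not tested and could not be told apart from the 2 alterations. The place of the 9 genes off the X chromosome does not settle this. The part of other cell types in the results on JAK and STAT genes was not tested. In sorted bulk RNA, fewer cells of a type and less RNA per cell cannot be told apart.

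The 9 genes lie on 6 chromosomes of GRCm38. Stat5b (chromosome 11, 100780731 to 100850724, minus strand), Stat5a (100859351 to 100885169, plus strand) and Stat3 (100885098 to 100939540, minus strand) are neighbours, and the ends of Stat5a and Stat3 overlap over 1.01% of Stat5a's exon bases. Stat6 (127642986 to 127660957) and Stat2 (128270559 to 128292849) lie on the plus strand of chromosome 10, Stat4 (51987148 to 52107189) on the plus strand of chromosome 1, Jak1 (101152367 to 101265282) on the minus strand of chromosome 4, Jak3 (71676296 to 71690575) on the plus strand of chromosome 8 and Tyk2 (21104068 to 21131243) on the minus strand of chromosome 9. Stat4 shares 26.7% of its exon bases with a noncoding transcript on its own strand, Tyk2 shares 8.07% with an antisense gene and Jak3 7.55% with Insl3. Stat5a and Stat5b share sequence, with 8.21% of the 50-base windows of Stat5a transcripts and 11.0% of those of Stat5b found in the other gene. Reads that map to both places fall in the multimapping row, so neither gene's count holds them. For all 9 genes the 2 strand columns together held 1.00 to 1.02 times the unstranded count.

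Jak1, the kinase shared by most of these receptors, stood far above the rest per length. It was at 604 ± 127 CPM per kilobase of exon (SD, n = 4) in control and 463 ± 40.7 (SD, n = 5) in DKO, and no library of another member reached its lowest library. Stat6 was next, at 88.4 ± 15.4 and 98.3 ± 6.98 CPM per kilobase, and above every member but Jak1 in each of the 9 libraries. In control its lowest library (66.3, replicate 1) lay under the highest of Jak3 (67.6, replicate 4), while in DKO its range met no other. Stat4, Jak3, Tyk2, Stat3 and Stat5b formed a middle band from 38.6 to 53.3 CPM per kilobase in control and from 43.5 to 51.6 in DKO. Within that band the ranges of neighbours overlapped in both groups. Inside each library, Jak3, Tyk2 and Stat3 were above Stat5b in 9 of 9, and the order among Jak3, Tyk2, Stat3 and Stat4 changed between libraries. Stat2 (15.2 ± 3.16 and 16.5 ± 1.26 CPM per kilobase) and Stat5a (11.5 ± 1.94 and 12.5 ± 0.328) were lowest. The ranges of these 2 overlapped in control but not in DKO, and with the longest transcript as the length Stat5a ranked above Stat2. With that length Stat3 moved from rank 6 to rank 3 in both groups (69.7 and 77.7 CPM per kilobase). Stat4 moved from 3 to 4 in control and from 4 to 6 in DKO. The order among Stat3, Stat4, Jak3 and Tyk2 thus depended on the length used. The plot of levels by library shows Jak1 apart at the top, and Stat2 and Stat5a apart below the middle band, in both groups.

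**Figure D1:**
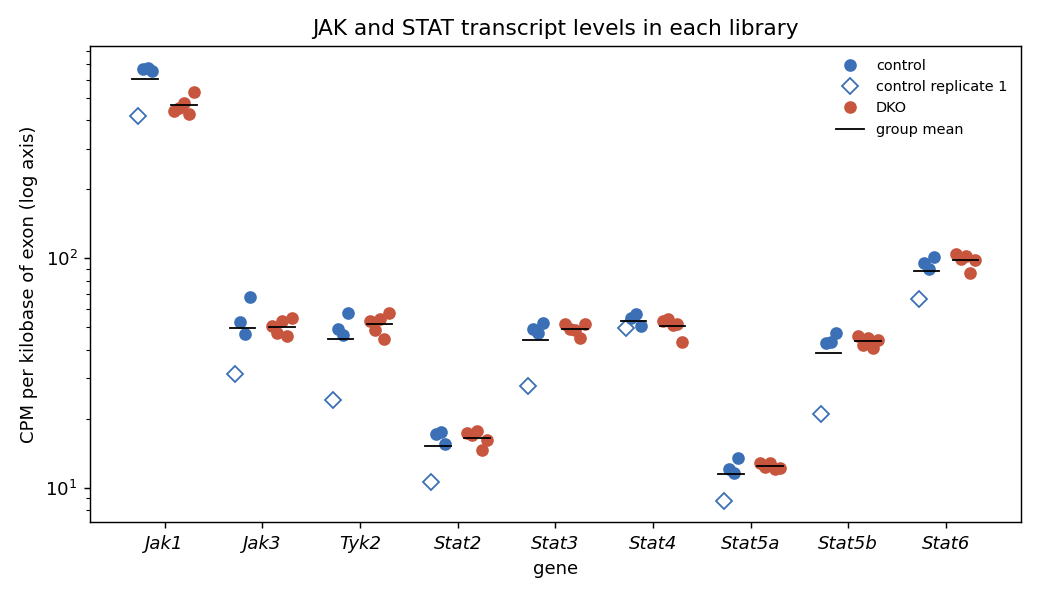
Level of each gene in every library, as CPM per kilobase of exon on a log axis, with controls in blue, DKO in red, control replicate 1 as an open diamond and group means as lines. Jak1 lies above all others, and control replicate 1 is the lowest library for 8 of the 9 genes.

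None of the 9 genes passed the threshold between the groups, set at 0.05 for p-values from the edgeR quasi-likelihood fit after Benjamini-Hochberg adjustment over 14918 genes. Of all genes tested 2.83% passed it, 1.32% higher and 1.51% lower in DKO. Jak1 was the only 1 of the 9 with an unadjusted p under 0.05, where 16.0% of all genes had one. DESeq2 called none of the 9, and limma-voom with quality weights called Jak1. DKO was higher for 7 of the 9 genes, with a median log2 fold change of 0.12 against 48.6% of all genes higher and a median of -0.01. Without control replicate 1 it was higher for 2 of the 9, with a median of -0.03, against 48.3% of all genes and -0.01. The CPM of the groups overlapped for all 9, while for 8.71% of all genes they did not.

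Jak1 was at 2997, 4839, 4892 and 4734 CPM in control replicates 1 to 4 and at 3174, 3252, 3418, 3065 and 3820 CPM in DKO replicates 1 to 5. Control replicates 2 to 4 lay close together above every DKO library, and control replicate 1 lay below all of them. The log2 fold change was -0.38 (SE 0.13, 95% interval -0.68 to -0.09, unadjusted p 0.0152, adjusted p 0.179, edgeR). With control replicate 1 left out the control mean was 4822 ± 80.7 CPM (SD, n = 3) against 3346 ± 294 CPM in DKO (SD, n = 5), and the log2 fold change was -0.54 (SE 0.07, interval -0.69 to -0.39, adjusted p 0.00165, edgeR), or 0.688 of control. In that fit 4.93% of 15185 genes were past the threshold. Jak1 was past it under 5 of the 19 alternatives tried and lower in DKO in all 19, from -0.54 to -0.32. With the trend on transcript length removed from each library it was at -0.45 (adjusted p 0.0128, edgeR), a fit that called 4.59% of all genes. It was also past the threshold with 1 surrogate variable (8.37% of all genes called) and in limma-voom with quality weights (6.68% called).

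Jak3, the partner of the common gamma chain, was at 167.6, 281.1, 250.9 and 362.1 CPM in the controls and at 271.8, 252.2, 286.5, 246.2 and 292.6 CPM in DKO. The DKO libraries fell inside the control range. The log2 fold change was 0.02 (95% interval -0.35 to 0.40, adjusted p 0.964, edgeR), and -0.16 (-0.39 to 0.08) without control replicate 1. Its sign turned under 7 of the 19 alternatives, so no direction can be given. Tyk2, the kinase of the IL-12 and interferon receptors, was at 165.2, 336.1, 319.3 and 397.5 CPM in the controls and at 364.7, 333.9, 371.6, 306.3 and 395.8 CPM in DKO. Apart from control replicate 1, the groups covered the same range. Its log2 fold change was 0.22 (-0.21 to 0.65, adjusted p 0.640, edgeR), and 0.00 (-0.20 to 0.20) without control replicate 1.

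Of the STATs of the common gamma chain cytokines, Stat5b was at 116.0, 237.6, 240.0 and 262.1 CPM in the controls and at 253.3, 232.2, 248.8, 225.7 and 245.1 CPM in DKO. Control replicate 1 had less than any other library, and the remaining 8 ran together. Its log2 fold change was 0.17 (interval -0.24 to 0.58, adjusted p 0.705, edgeR), and -0.05 (-0.18 to 0.08) without control replicate 1. Stat5a, its near copy, was at 62.8, 85.8, 83.1 and 95.9 CPM in the controls and at 91.4, 88.0, 91.4, 86.5 and 87.2 CPM in DKO, where it varied by 2.63% (coefficient of variation), the least of the 9 genes. Its log2 fold change was 0.12 (-0.12 to 0.36, adjusted p 0.647, edgeR), and -0.00 (-0.14 to 0.13) without control replicate 1. Stat3, which carries IL-6, IL-10 and IL-21 signals, was at 263.5, 469.1, 452.0 and 500.2 CPM in the controls and at 491.7, 468.0, 465.2, 428.1 and 495.0 CPM in DKO. Its log2 fold change was 0.16 (-0.18 to 0.50, adjusted p 0.673, edgeR), and -0.03 (-0.16 to 0.11) without control replicate 1.

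Stat4, the STAT of IL-12, was at 192.9, 213.4, 221.9 and 196.7 CPM in the controls and at 205.6, 209.6, 197.6, 199.5 and 166.5 CPM in DKO. It was the only member for which control replicate 1 was not the lowest of the 9 libraries, and DKO replicate 5 was. Its log2 fold change was -0.08 (interval -0.26 to 0.11, adjusted p 0.719, edgeR). Stat2, the interferon STAT, was at 62.9, 101.5, 103.4 and 91.6 CPM in the controls and at 102.3, 100.8, 105.3, 86.2 and 95.5 CPM in DKO, for a log2 fold change of 0.12 (-0.17 to 0.42, adjusted p 0.702, edgeR). Stat6, the IL-4 STAT, was at 292.0, 420.0, 397.0 and 447.2 CPM in the controls and at 460.0, 436.7, 451.2, 381.0 and 434.4 CPM in DKO, for a log2 fold change of 0.15 (-0.10 to 0.41, adjusted p 0.565, edgeR). In the 8 libraries other than control replicate 1 the intervals narrowed to -0.29 to 0.05 for Stat4, -0.19 to 0.14 for Stat2 and -0.12 to 0.17 for Stat6. The lowest count of any member was 3045 (Stat5a in control replicate 1), so depth did not limit these values, and intervals cover the spread between these libraries.

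**Figure D2:**
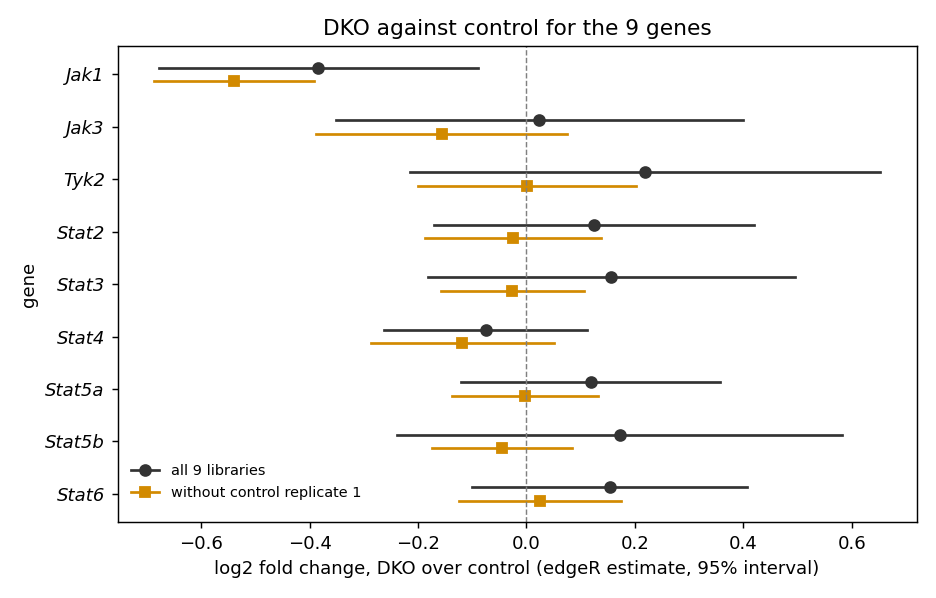
Log2 fold change of DKO over control with its 95% interval for each gene, with all 9 libraries (dark circles) and without control replicate 1 (orange squares). Jak1 moves from -0.38 to -0.54 and its interval narrows, while the other 8 lie between -0.16 and 0.03 without that library.

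Control replicate 1 set most of the spread among controls. Against the mean of the other 3 controls it was lower by 1.09 on the log2 scale for Stat5b and 1.08 for Tyk2, by 0.84 for Stat3, 0.81 for Jak3, 0.69 for Jak1, 0.65 for Stat2, 0.53 for Stat6 and 0.49 for Stat5a. Stat4 differed least, by 0.12. Of 8174 genes with at least 10 CPM, 4.16% lay lower in that library than Stat5b, 14.2% lower than Jak1 and 45.9% lower than Stat4. The shift ran with transcript length over all those genes, with a median of 0.39 for 1602 genes with transcripts under 2000 bases, -0.03 for 3428 genes of 2000 to under 4000 bases and -0.46 for 3144 genes of 4000 bases and over. The longest transcript of Stat4 is 2982 bases, the shortest among the 9, and the others run from 3775 (Stat6) to 6042 bases (Stat3). The share of unmapped reads was 16.7% in control replicate 1 and 10.3 to 12.3% in the other libraries.

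**Figure D3:**
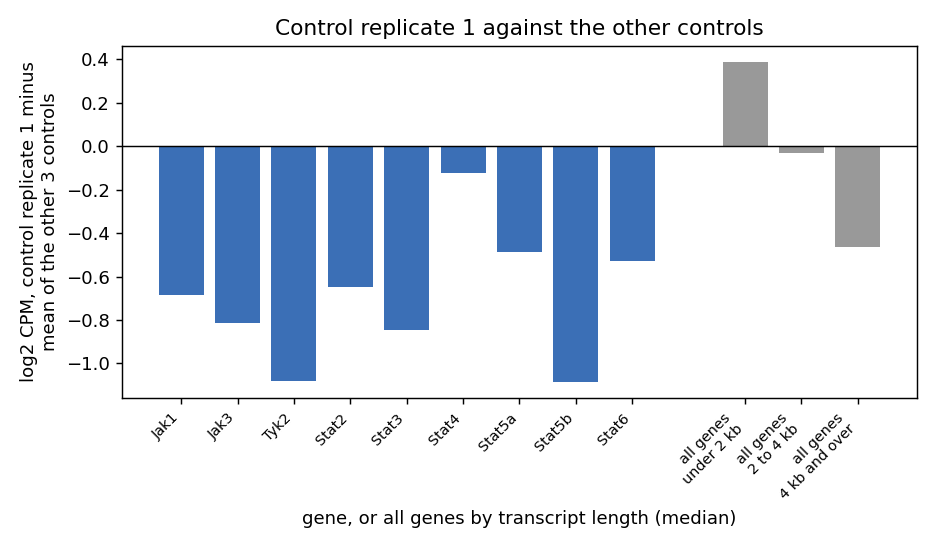
Log2 CPM of control replicate 1 minus the mean of the other 3 controls, for the 9 genes (blue) and as the median over all genes of at least 10 CPM by transcript length (grey). Stat5b and Tyk2 lie lowest, Stat4 is near 0, and long transcripts lie below short ones.

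Within a library, the members can be set against each other free of library size. This does not remove the shift of control replicate 1, which was -1.08 on the log2 scale for Tyk2 and -0.69 for Jak1. Per length, Tyk2 was at 5.80, 7.31, 6.87 and 8.84% of Jak1 in the controls and at 12.1, 10.8, 11.4, 10.5 and 10.9% in DKO. Every DKO library was above every control library, control replicate 1 included. The log2 ratio was higher in DKO by 0.64 (exact permutation p 0.0159, two-sided, the smallest that relabelling the libraries allows, adjusted p 0.0317 over 4 ratios). A ratio to Jak1 higher in every DKO than in every control library was found for 17.0% of 14917 other genes tested. It was found for 25.4% of 8173 genes with at least 10 CPM. Jak3 was at 7.55, 7.84, 6.93 and 10.33% of Jak1 in the controls and at 11.6, 10.5, 11.3, 10.8 and 10.34% in DKO, higher by 0.43 on the log2 scale (the same exact permutation p 0.0159 and adjusted p 0.0317). The gap between the groups there was the difference between 10.33% and 10.34%. With any 1 library left out the difference stayed between 0.55 and 0.75 for Tyk2 and between 0.36 and 0.55 for Jak3. In those smaller designs the smallest exact permutation p is 0.0286 without a DKO library and 0.0357 without a control library. Adjusted over 4 ratios, the threshold is not met when only Tyk2 and Jak3 are at that p.

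Stat4 over Stat3 was at 1.80, 1.12, 1.21 and 0.967 in the controls and at 1.03, 1.10, 1.05, 1.15 and 0.828 in DKO (log2 difference -0.28, exact permutation p 0.238, adjusted p 0.317). Control replicate 1 stood highest and DKO replicate 5 lowest. Stat5b over Stat5a was at 2.38, 3.57, 3.72 and 3.52 in the controls and at 3.57, 3.40, 3.50, 3.36 and 3.62 in DKO (log2 difference 0.10, exact permutation p 0.794, adjusted p 0.794). Outside control replicate 1, Stat5b was held at 3.36 to 3.72 times Stat5a in all 8 libraries.

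The other members were then set against Jak1 as a description, after the planned ratios had been seen. The ratio was higher in every DKO than in every control library for 7 of 8 members, and Stat4 was the exception. Of all 14917 other genes tested 17.0% showed this, and 25.4% of 8173 genes with at least 10 CPM did. Since all 8 ratios share Jak1, they are not separate results. Stat6, for example, was at 13.3 to 16.0% of Jak1 in control and 18.7 to 23.8% in DKO.

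**Figure D4:**
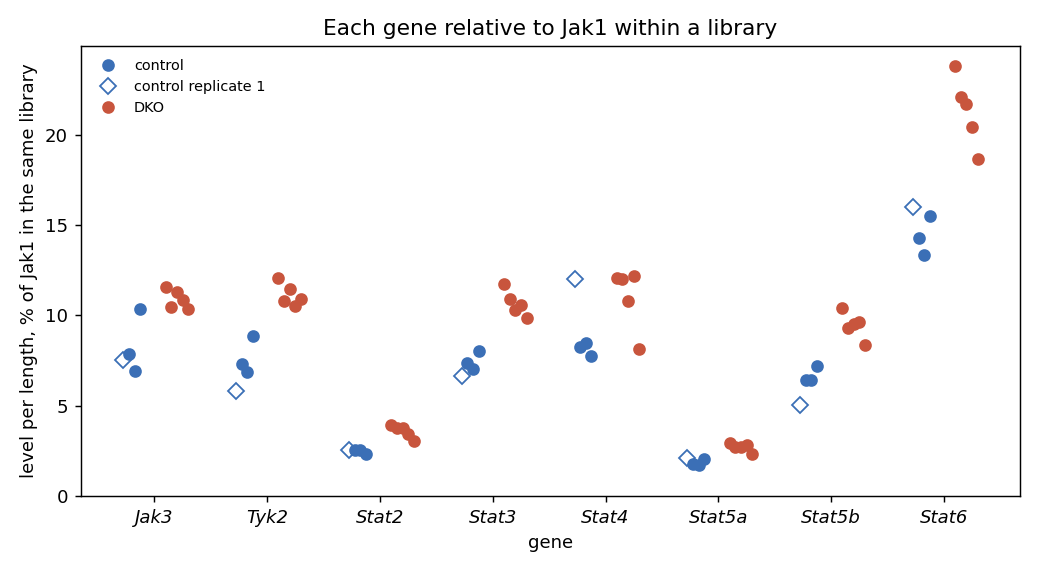
Level of each member per length as a percentage of Jak1 in the same library, with controls in blue, DKO in red and control replicate 1 as an open diamond. The DKO libraries lie above the controls for 7 of the 8 genes, by the smallest gap for Jak3, and overlap for Stat4.

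How alike the members were across libraries was measured as Pearson's r of log2 CPM with group means removed, which is a description, since libraries share depth and quality. Over 9 libraries the 28 pairs without Stat4 had r from 0.72 to 0.99 (median 0.93), and the 8 pairs with Stat4 had r from -0.04 to 0.47. When that library was left out the median of the 28 pairs was 0.66 over 8 libraries, with a range of -0.21 to 0.92, so much of the likeness rested on that library. The closest pairs over those 8 libraries were Jak3 with Tyk2 (0.92) and Stat3 with Tyk2 (0.91), and the most opposed was Stat4 with Jak1 (-0.73). The 2 genes most like each member were sought among 8174 genes of at least 10 CPM. Genes without a symbol and a list of skipped names were left out. Over 9 libraries the 2 nearest were Dnm2 (0.986) and Stk40 (0.984) for Jak1, Unk (0.987) and Mroh1 (0.984) for Jak3, and Map4k2 (0.996) and Dennd4b (0.993) for Tyk2. For the STATs they were Arid3b (0.994) and Tmppe (0.991) for Stat2, Nckap1l (0.997) and Tbc1d2b (0.996) for Stat3, Mbtps2 (0.961) and Mob3c (0.957) for Stat4, Mroh1 (0.989) and Bcl11b (0.985) for Stat5a, Ahcyl2 (0.998) and Tln1 (0.996) for Stat5b, and Ttc7 (0.992) and Ripor1 (0.992) for Stat6. Over the 8 libraries these values ran from 0.895 to 0.992.

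Upstream of the kinases, 23 of 34 cytokine receptor chains were tested. Il21r, the IL-21 receptor, was the 1 that passed, and it rose. It was at 189.1, 233.0, 230.4 and 244.9 CPM in the controls and at 334.0, 301.2, 302.5, 262.7 and 323.6 CPM in DKO, with no overlap (log2 fold change 0.44, SE 0.10, adjusted p 0.0357, edgeR). It lost the threshold without any 1 of 7 libraries, with adjusted p of 0.0600 to 0.101, and kept it when control replicate 1 or DKO replicate 4 was left out. The list's median log2 fold change was 0.16, with 14 of 23 higher, and 0.10 with 15 of 23 higher without control replicate 1. Without that library 48.3% of all genes were higher. Both chains of the IL-12 receptor were higher in every DKO library than in every control library without passing the threshold in edgeR. Il12rb1 was at 33.1 ± 6.95 and 48.5 ± 4.11 CPM (0.55, adjusted p 0.0638, edgeR) and Il12rb2 at 42.9 ± 14.7 and 65.9 ± 4.72 CPM (0.62, adjusted p 0.172). Without control replicate 1 their adjusted p were 0.0290 and 0.0197, and with 1 surrogate variable 0.00678 and 0.0147. DESeq2 and limma-voom called Il12rb1 (adjusted p 0.00658 and 0.00862) but not Il12rb2 (0.0584 and 0.0712). Over the list limma-voom called 4 chains, Il21r, Il12rb1, Il6st and Ifnar1. For Il12rb2 the 2 strand columns together held 1.87 times the unstranded count, so its level depends on the column used.

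The IL-2 receptor chains did not pass the threshold in edgeR. Il2rb, the beta chain, had 1076 ± 184.8 CPM in control and 1260 ± 38.1 in DKO (log2 fold change 0.23, adjusted p 0.332, edgeR), Il2ra, the alpha chain, at 37.5 ± 9.46 and 45.2 ± 5.01 CPM (0.27, adjusted p 0.451), and Il2rg, the common gamma chain, at 410.9 ± 41.0 and 393.7 ± 15.8 CPM (-0.06, adjusted p 0.754). Il7r was at 297.2 ± 33.9 and 258.5 ± 73.7 CPM (-0.20, adjusted p 0.670), lowest in DKO replicate 5 at 142.5 CPM. Other receptor chains did not pass in edgeR either. Il6st, shared by the IL-6 family, was at 18.0 ± 7.00 and 28.2 ± 3.27 CPM (0.65, adjusted p 0.222), Il4ra at 64.6 ± 14.1 and 72.7 ± 6.37 CPM (0.17, adjusted p 0.585), and Ifngr1, for interferon gamma, at 538.1 ± 76.8 and 599.9 ± 69.2 CPM (0.16, adjusted p 0.534, edgeR).

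The type I interferon receptor chains had opposite signs. Ifnar1, to which TYK2 binds, was at 125.8, 176.6, 196.2 and 188.0 CPM in the controls and at 153.4, 144.8, 138.8, 133.8 and 152.8 CPM in DKO (log2 fold change -0.25, adjusted p 0.344, edgeR). As for Jak1, control replicate 1 was the lowest library and controls 2 to 4 were above every DKO library. Without control replicate 1 it was at -0.38 (adjusted p 0.00702). Ifnar2, to which JAK1 binds, was at 87.6 ± 9.64 and 98.4 ± 5.14 CPM (0.17, adjusted p 0.390). Without control replicate 1, 3 receptor chains were past the threshold higher (Il21r, Il12rb1 and Il12rb2) and 2 lower (Ifnar1 and, named only after its value was seen, Il10ra at -0.26, adjusted p 0.0368). That fit called 4.93% of all genes.

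Of 22 cytokine genes that act on these receptors 5 were tested (Il2, Il6, Il15, Ifng and Osm), none passed in edgeR, and none had an unadjusted p under 0.05. DESeq2, which gave 2 of them no adjusted p, and limma-voom called none of them either. Ifng, for interferon gamma, had 48.4 ± 6.74 CPM against 42.1 ± 3.08 CPM (-0.20, adjusted p 0.382). Il9, Il10, Il13, Il21, Il22 and Ifnb1 had 0 counts in all 9 libraries, which allows up to 3 counts over all libraries, or 0.00647 CPM.

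Of the 19 inhibitors, all tested, 1 passed in edgeR. Usp18, which blocks JAK1 at the interferon receptor, was at 18.4, 18.0, 19.2 and 19.0 CPM in the controls and at 8.81, 14.6, 9.26, 12.1 and 9.79 CPM in DKO, and fell without overlap (log2 fold change -0.77, SE 0.15, adjusted p 0.0218, edgeR). It lost the threshold when any 1 of control replicate 4 and DKO replicates 1, 3 and 5 was left out (adjusted p 0.0542 to 0.0648), and the 2 strand columns together held 1.20 times its unstranded count. The feedback inhibitors that STATs themselves switch on did not pass. Cish was at 22.7 ± 4.58 and 26.9 ± 3.13 CPM (0.25, adjusted p 0.423, edgeR), Socs1 at 20.9 ± 1.51 and 18.1 ± 2.05 CPM (-0.21, adjusted p 0.392), Socs2 at 9.56 ± 1.06 and 11.5 ± 1.62 CPM (0.26, adjusted p 0.382) and Socs3 at 13.2 ± 2.16 and 16.6 ± 1.45 CPM (0.33, adjusted p 0.234). For Cish the 2 strand columns together held 2.02 times the unstranded count, so its level depends on the column used. Ptpn2, a phosphatase that removes phosphate from JAK1, JAK3 and STATs, was at 170.4 ± 22.1 and 157.1 ± 5.13 CPM (-0.12, adjusted p 0.563). The list's median was 0.07, with 12 of 19 higher. DESeq2 called 3 inhibitors (Usp18, Ptpn1 and Pias4) and limma-voom 2 (Usp18 and Ptpn1). Ptpn1, a phosphatase named only after its values were seen, was at 264.6 ± 10.1 and 313.8 ± 11.3 CPM without overlap (0.25, adjusted p 0.0782, edgeR).

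Of 9 cofactors and adaptors, all tested, Stam2 passed. This adaptor binds JAKs and sorts receptors inside the cell, and it rose from 67.5 ± 9.43 to 91.4 ± 4.88 CPM without overlap (log2 fold change 0.44, SE 0.10, adjusted p 0.0427, edgeR). It kept the threshold only without control replicates 1 or 3 when single libraries were left out, with an adjusted p of 0.0519 to 0.119 in the other 7 fits. Irf9, the partner of STAT2, was at 156.6 ± 10.4 and 131.5 ± 14.4 CPM (-0.25, adjusted p 0.202).

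The target lists came from general knowledge of each STAT, and genes of the interferon list were known to be lower in DKO from earlier results of these data, so their direction is no independent evidence. Of 16 STAT2 targets 15 were tested, 13 were lower in DKO and 4 passed, all lower: Oas1a, Rsad2, Rtp4 and Usp18. Oas1a, a sensor of double-stranded RNA, was at 12.04, 8.28, 12.4 and 11.9 CPM in the controls and at 5.22, 5.50, 3.03, 5.90 and 4.97 CPM in DKO, with no overlap (log2 fold change -1.18, SE 0.20, adjusted p 0.0108, edgeR). It was past the threshold in all 9 fits that left out a library. Rsad2, the antiviral protein viperin, fell from 5.48 ± 1.49 to 2.31 ± 0.795 CPM (-1.24, adjusted p 0.0343), and Rtp4 from 18.5 ± 5.74 to 8.67 ± 2.44 CPM (-1.09, adjusted p 0.0352). Rsad2 lost the threshold when any 1 of 6 libraries was left out (control replicates 3 and 4, DKO replicates 1, 2, 3 and 5, adjusted p 0.0642 to 0.0819, edgeR). Rtp4 did so for 5 of those 6, DKO replicate 2 being the exception (adjusted p 0.0566 to 0.0940). Ifit1, also an interferon target, was at 20.5 ± 3.58 and 15.9 ± 4.67 CPM (-0.36, adjusted p 0.430). The list's median was -0.33. DESeq2 and limma-voom each called 5 genes of the list, those 4 and Irf7 in DESeq2 or Mx1 in limma-voom. Stat2 itself did not pass, at 0.12, and with control replicate 1 left out at -0.03. The interferon element was in 7 of the 12 promoters found for 11 of these genes, Oas1a and Rsad2 among them, against 3.44% of all promoters. The list was chosen as STAT2 targets, so this share is no independent evidence. For Usp18 and Rtp4 no promoter was found, so they were not searched.

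Of 11 STAT5 targets, all tested, Ccnd2 passed. This cell cycle cyclin rose from 389.9 ± 43.2 to 509.3 ± 29.4 CPM without overlap (log2 fold change 0.39, SE 0.09, adjusted p 0.0407, edgeR), but lost the threshold without any 1 library other than control replicate 1 (adjusted p 0.0638 to 0.118) and with the length trend removed (0.348). Bcl2, a survival gene, was at 39.2 ± 7.11 and 30.7 ± 6.43 CPM (-0.36, adjusted p 0.329), with the 2 strand columns at 1.29 times its unstranded count. Pim1, a kinase, was at 36.7 ± 5.24 and 38.6 ± 8.20 CPM (0.07, adjusted p 0.866), at 1.70 times. The list's median was 0.25, with 8 of 11 higher, and without control replicate 1 it was 0.12 with the same count.

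Of 9 STAT4 targets, all tested, none passed in edgeR, and 4 had an unadjusted p under 0.05, against 16.0% of all genes. DESeq2 and limma-voom each called 1 (Hlx, a transcription factor named only after its values were seen, at 1.87 ± 0.305 and 0.938 ± 0.401 CPM). Without control replicate 1, Il12rb2 was the 1 past the threshold in edgeR, where 4.93% of all genes were. Tbx21, the transcription factor T-bet, was at 1106 ± 112.9 and 1293 ± 111.3 CPM (0.22, adjusted p 0.253, edgeR) and Il18r1, an IL-18 receptor chain, at 134.5 ± 12.4 and 120.1 ± 20.6 CPM (-0.16, adjusted p 0.588), lowest in DKO replicate 5 at 85.9 CPM. The list's median was -0.08. Of 8 STAT3 targets, all tested, Bcl3 passed. This NF-kB partner rose from 26.4 ± 5.55 to 42.7 ± 7.81 CPM without overlap (0.70, SE 0.17, adjusted p 0.0497, edgeR). With single libraries left out it stayed past the threshold without control replicate 4 alone (adjusted p 0.0509 to 0.124 in the other 8 fits). The list's median was 0.20, and 0.05 without control replicate 1. DESeq2 and limma-voom each called 2 of these targets, Bcl3 and Mcl1. Counting a gene of several lists once, 89 of 118 pathway genes were tested, and 4 passed higher and 4 lower, which is 8.99% of those tested against 2.83% of all genes (1.32% higher and 1.51% lower). All 4 lower genes were STAT2 targets, a list known to be lower in DKO from earlier results of these data. The larger share among pathway genes is therefore no independent evidence. The count of 8 fell to between 1 and 5 when any single library other than control replicate 1 was left out, rose to 12 without that library, and was 0 with the replicate number as a block.

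**Figure D5:**
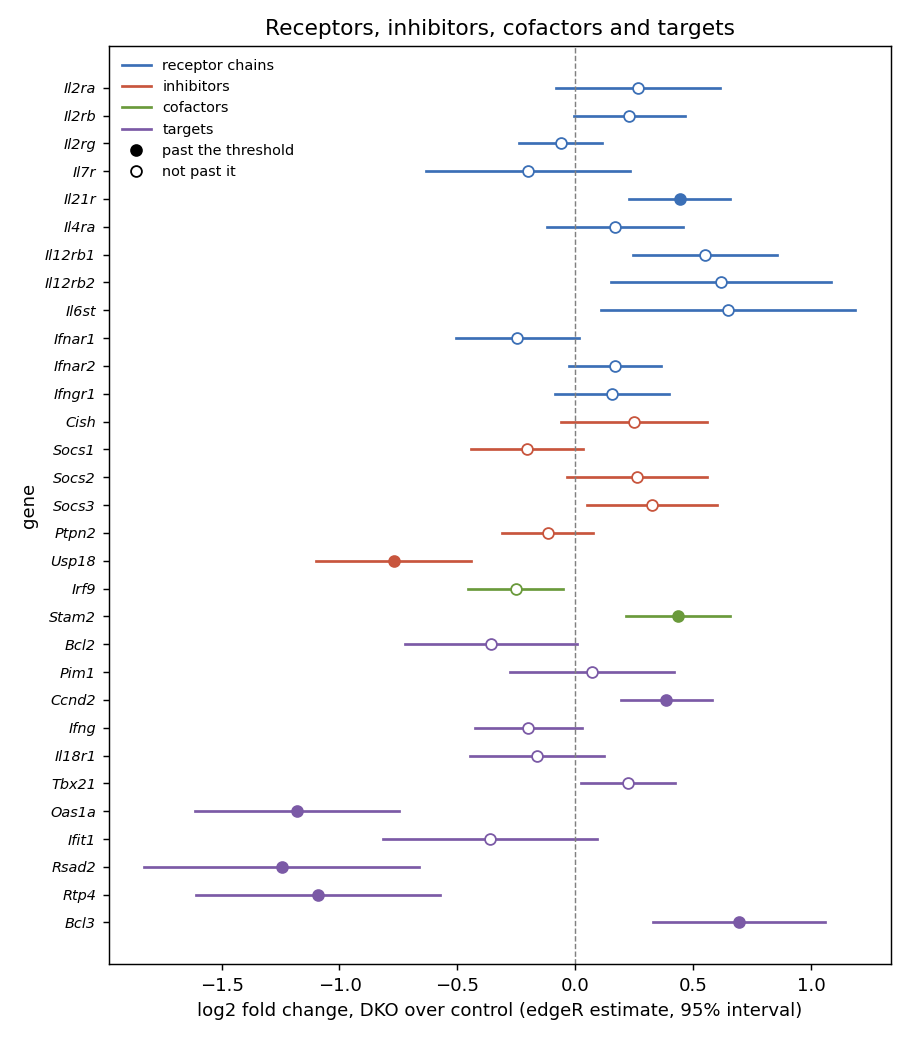
Log2 fold change of DKO over control with its 95% interval for the named receptor chains, inhibitors, cofactors and targets, filled where the adjusted p was at most 0.05. The 8 filled genes are Il21r, Stam2, Ccnd2 and Bcl3 to the right of 0, and Usp18, Oas1a, Rsad2 and Rtp4 to the left.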

How the data were processed

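RNA from sorted OT-I CD8+ T cells was sequenced in 4 control and 5 DKO libraries. The authors deposited gene counts per library in 3 columns (unstranded and by strand). Per the submitters' processing notes, Trim Galore 0.6.0, STAR 2.7.8a and mm10 were used, and the annotation was not given in the sources used here. Identifiers were named from GENCODE M21 (GRCm38), where 55230 of 55471 matched without version. Unstranded counts were used, since the first strand held 49.9 to 50.1% of stranded counts. Rows that name no gene stayed out of totals (no feature 4.01 to 5.20%, ambiguous 4.97 to 5.31%, multimapping 5.80 to 6.79% of reads).

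The 14918 genes kept by filterByExpr went into edgeR 4.0.16 under R 4.3.3 (TMM scaling, robust quasi-likelihood test, no covariate), with Benjamini-Hochberg adjustment and a threshold of 0.05. Alternatives used DESeq2 1.42.0, limma 3.58.1 and sva 3.50.0. The edgeR, DESeq2 and limma-voom fits were run on simulated data with 200 changed genes. There edgeR called 22% of genes changed by 0.5 on the log2 scale and 59% of those changed by 1. False calls were 5.81% of the calls of edgeR, 26.9% of those of DESeq2 and 6.02% of those of limma-voom. The simulated counts were drawn gene by gene, without a shift by transcript length like that of control replicates 1 and 3. These rates may therefore differ from those in the real libraries. Fits with a surrogate variable, a replicate block or the length trend removed were not simulated. CPM used TMM-scaled library sizes. The members and lists were chosen with earlier results of these data known. Named genes were the 9 members, pathway genes past the threshold, a fixed set of receptors, inhibitors and targets, and the 2 genes most like each member. No 2 libraries agreed within sampling noise (chi-square over degrees of freedom 9.51 to 201.7). Ratios used an exact permutation of the group labels.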

Additional observations from a re-analysis of the deposited data

Results flagged for a closer look

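Among 100 groups of values checked, 9 held a library far from the others of its group, and chance alone gives about 1 in 20 groups. Of these 9, 4 were in control replicate 1. Jak1 was at 2997 CPM there, against 4734 to 4892 CPM in the other controls. Stat5b was at 116.0 CPM, against 237.6 to 262.1 CPM, and the log2 ratio of Stat5b over Stat5a was 1.25, against 1.82 to 1.90. Ptpn2 was at 203.4 CPM, against 158.2 to 161.8 CPM. Stat4 in DKO replicate 5 was at 166.5 CPM, where the other DKO libraries ran from 197.6 to 209.6 CPM, and Ifngr1 in the same library was at 723.5 CPM, against 563.5 to 572.7 CPM. Among the controls, Oas1a was at 8.28 CPM in replicate 2, against 11.9 to 12.4 CPM. In control replicate 4, Socs3 was at 16.5 CPM, against 11.8 to 12.4 CPM, and Ccnd2 at 325.7 CPM, against 403.8 to 419.3 CPM.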

How the results depend on the processing

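Over all genes 422 were past the threshold. The count was 1059 with the DESeq2 Wald test, 996 with limma-voom and quality weights, 1248 with 1 surrogate variable, 684 with the length trend removed and 179 to 749 with single libraries left out. Of the 9 members 0 were past it, against 1 (Jak1) with limma-voom, with 1 surrogate variable, with the length trend removed and without control replicates 1 and 3, and 0 to 1 with single libraries left out. Of the pathway genes 8 were past it, against 15 with DESeq2, 15 with limma-voom, 17 with 1 surrogate variable, 5 without control replicates 1 and 3, and 1 to 12 with single libraries left out. Removing the length trend and leaving out control replicates 1 and 3 were chosen after seeing the data.

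Same-numbered control and DKO libraries did not deviate together (r -0.05, -0.01, 0.01 and -0.12, none best with its own number). With so few pairs, this cannot show whether equal numbers stand for a shared batch. With the replicate block 67 genes, 0 pathway genes and 0 members were past the threshold. The paired differences in log2 ratio to Jak1 were 0.45 for Jak3 and 0.65 for Tyk2 (adjusted exact p 0.250). The smallest exact p of 4 pairs is 0.125, so no ratio could meet the threshold in that design.

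Single libraries left out gave 0.36 to 0.55 for Jak3 over Jak1 and 0.55 to 0.75 for Tyk2 over Jak1. Without control replicates 1 and 3 they were 0.28 and 0.47 (adjusted exact p 0.190). That design also holds too few libraries for the exact test to reach 0.05. Signs turned without control replicate 1 for 5 members and 1 ratio. With single libraries left out the log2 differences ran from -0.025 to 0.20 for Stat2, -0.026 to 0.25 for Stat3, -0.0024 to 0.20 for Stat5a, -0.046 to 0.29 for Stat5b, -0.16 to 0.21 for Jak3 and -0.046 to 0.17 for Stat5b over Stat5a. Jak3 also turned without DKO replicate 5 (-0.01) or control replicate 3 (-0.0017), and Pim1 ran from -0.036 to 0.17. Without control replicates 1 and 3 the signs turned for Stat3 (-0.059), Stat5a (-0.045), Stat5b (-0.065), Stat6 (-0.017), Jak3 (-0.27), Tyk2 (-0.063), Il2ra (-0.018), Pim1 (-0.11) and Stat5b over Stat5a (-0.022). With limma-voom they turned for Jak3 (-0.080) and Pim1 (-0.067), and Jak3 also turned with 1 surrogate variable (-0.030) and the length trend removed (-0.016). The cause was not tested. Over 171 values of members under alternatives, 150 kept direction and side of the threshold.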

Other observations

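Control replicate 3 deviated with transcript length in the opposite direction to control replicate 1. Its median log2 difference from the mean of the other controls was -0.22 for transcripts under 2000 bases, -0.02 for 2000 to under 4000 bases and 0.22 for 4000 bases and over.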
